A study of Mus musculus with 6 samples.

Results

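The 9 genes described here encode the core of mTOR signaling to cap-dependent translation: Mtor, Rptor, Rictor, Tsc1, Tsc2, Rps6kb1, Eif4e, Eif4ebp1 and Eif4ebp2. They were picked by gene name from a table of 55367 gene rows, with no rule on their values, and all 9 were found. Earlier results of these data were known when they were chosen. The table held raw RNA-seq read counts from neurons of the P1 (postnatal day 1) cerebral cortex of C57BL/6J mice, cultured for 2 days in vitro. There were 3 libraries from wild-type (WT) mice and 3 from Fmr1-knockout (Fmr1-KO) mice, which lack the RNA-binding protein FMRP, and no treatment other than the shared culture in Neurobasal/B27 Plus medium. The study measured how loss of FMRP changes mRNA levels, with nonsense-mediated mRNA decay (NMD) as its main interest, and every change below is given for Fmr1-KO against WT. The labels name no litter, pooling of pups or preparation day, so the p-values measure the spread between these libraries and no comparison within a batch could be made.

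mTOR is a serine/threonine kinase that works in a pair of complexes: mTORC1, built around Raptor (Rptor), and mTORC2, built around Rictor. The TSC1-TSC2 complex holds mTORC1 in check by switching off the small GTPase RHEB. Active mTORC1 phosphorylates S6 kinase 1 (Rps6kb1) and the 4E-BPs (Eif4ebp1, Eif4ebp2), and a phosphorylated 4E-BP lets go of eIF4E, the protein that binds the mRNA cap and starts assembly of the eIF4F initiation complex. In neurons this pathway controls protein synthesis at synapses, and 4E-BP2 is known as the main 4E-BP of the brain. FMRP represses translation of its target mRNAs, which is why these genes are often examined in fragile X models. These data measured mRNA levels and not phosphorylation, protein or translation.

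The sequences that tie the genes together are the docking sites through which mTORC1 and eIF4E reach the 4E-BPs and S6 kinase 1. They are shown because the pair of 4E-BP genes were both called higher in Fmr1-KO and their reads must be told apart. The eIF4E-binding motif is given first, as coding DNA of GENCODE M21 transcripts on GRCm38 with the motif codons in capitals and 5 codons on each side. The stretch shown, motif and flanking codons together, lies across an exon junction in both genes. For Eif4ebp1 it spans chr8:27260550-27273372 on the plus strand (coding bases 142 to 192 of 354, motif at 157 to 177). For Eif4ebp2 it spans chr10:61435054-61452402 on the minus strand (coding bases 145 to 195 of 363, motif at 160 to 180). Whether the junction falls within the motif itself was not determined.
Eif4ebp1: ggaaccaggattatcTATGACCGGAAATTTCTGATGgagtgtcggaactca
Eif4ebp2: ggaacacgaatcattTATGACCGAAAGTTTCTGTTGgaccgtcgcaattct
The motif differed at 3 of 21 bases between the genes.

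The second site is the TOS motif, the short stretch through which Raptor recruits mTORC1 substrates, again in capitals. It lies within 1 exon in each gene. In the 4E-BP genes it ends directly before the stop codon, and the stretches shown lie at chr8:27275082-27275111 (plus strand) and chr10:61433797-61433826 (minus strand). In Rps6kb1 it lies near the start of the coding sequence, and the stretch shown is at chr11:86544599-86544637 on the minus strand.
Eif4ebp1: gaagagtcacaaTTTGAGATGGACATTtaa
Eif4ebp2: gatgaggctcagTTTGAGATGGACATCtga
Rps6kb1: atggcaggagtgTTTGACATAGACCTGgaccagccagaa
The TOS codons of Eif4ebp1 and Eif4ebp2 differed at 1 of 15 bases. Over their whole coding sequences the genes were identical at 69.1% of 349 aligned bases. The longest stretch shared without a mismatch by their transcripts was 14 bases, against reads of 100 bases, so that no full-length read could match both genes exactly.

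Library totals ran from 30348556 to 35126207 counts, and 16976 genes passed the filter on low counts. Replicates differed by more than counting noise (chi-square per degree of freedom 2.68 in WT and 2.88 in Fmr1-KO), and their common biological coefficient of variation was 3.22%. Fmr1 fell to 50.6% of its WT level (log2 fold-change -0.98, adjusted P = 2.25e-13), and each Fmr1-KO library lay below each WT library. All adjusted P values come from the quasi-likelihood test of edgeR, adjusted by Benjamini-Hochberg over every tested gene, and calls were made at adjusted P values under 0.05. On that rule 42.6% of tested genes were called, 21.9% lower and 20.7% higher in Fmr1-KO, with a median absolute log2 fold-change of 0.29 among the called genes. The balance of directions depended on the scaling, with 3725 lower and 3506 higher by TMM, 3517 and 3743 by upper-quartile normalization, and 3212 and 4207 with library totals alone. Markers of several cell types were detected and moved with genotype. Summed over its list, the level ran from 5069 to 5207 CPM (counts scaled to library size by TMM) in WT and from 4340 to 4548 CPM in Fmr1-KO for 12 neuronal markers, of which 11 were called lower and 1 higher. For 12 genes of proliferating cells it ran from 693 to 731 CPM in WT and from 1160 to 1213 CPM in Fmr1-KO, with all 12 called higher. By the study's methods, cells carrying the astrocyte antigen ACSA2 and myelin had been removed with antibody beads ahead of plating. Astrocyte markers still summed to 4293 to 4425 CPM in WT and 3689 to 4033 CPM in Fmr1-KO in these cultures labelled as neurons, and of 7 genes 4 were called lower (Gfap, Aqp4, S100b and Slc1a2) and 2 higher (Gja1 and Aldoc). In such bulk samples fewer cells of a type and less RNA per cell cannot be told apart.

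All 9 genes passed the filter on low counts. Of these, 4 were called, which is 44.4%: Mtor and Tsc2 fell, and Eif4ebp1 and Eif4ebp2 rose. That share was close to the 42.6% of all tested genes. The changes were small, with a median absolute log2 fold-change of 0.07 over the 9 genes against 0.15 over all tested genes, and 8 of the 9 changed by less than the median called gene. Only Eif4ebp1 exceeded it. The libraries of the genotypes did not overlap for 4 genes (44.4%), against 51.7% of tested genes. Of these, Mtor, Tsc2 and Eif4e lay lower in every Fmr1-KO library, a pattern found in 26.3% of tested genes, and Eif4ebp1 lay higher in every Fmr1-KO library, found in 25.4%.

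**Figure D1:**
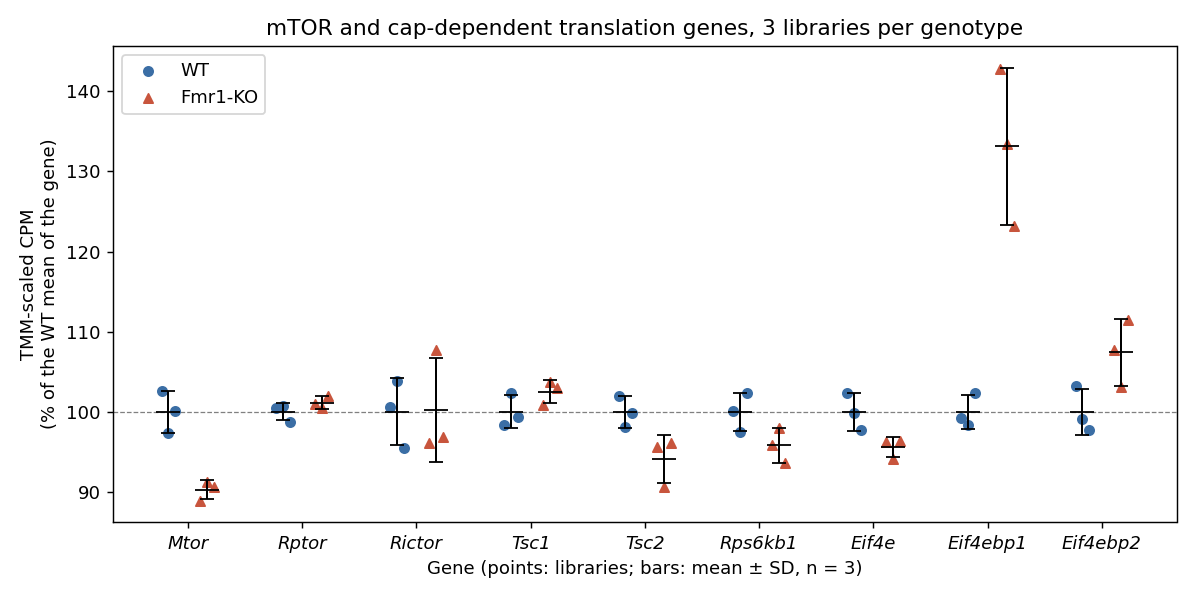
TMM-scaled CPM of each gene in each library, as a percent of the gene's WT mean (vertical axis); circles are WT libraries, triangles are Fmr1-KO libraries, and bars give the mean ± SD of 3 libraries. Eif4ebp1 stands out with a Fmr1-KO mean 33.1% above WT, the Mtor mean is 90.3% of WT without overlap, and Rptor, Rictor and Tsc1 overlap between genotypes.

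Because longer mRNAs collect more reads, levels of different genes were compared as CPM per kb of annotated exon. In WT, Eif4ebp2 had the highest level, at 39.2 ± 1.12 CPM per kb (SD, n = 3), above its binding partner Eif4e at 20.5 ± 0.479 CPM per kb. Tsc2 followed at 17.5 ± 0.344, Mtor at 13.9 ± 0.363 and Rps6kb1 at 11.4 ± 0.276 CPM per kb. The lowest levels were those of Tsc1 (7.41 ± 0.153), Rptor (6.45 ± 0.0683), Eif4ebp1 (5.86 ± 0.123) and Rictor (4.99 ± 0.208 CPM per kb). Each neighbour in this WT order was separated from the next in every library.

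In Fmr1-KO, Eif4ebp1 had 7.81 ± 0.575 CPM per kb and moved above Rptor (6.52 ± 0.0511 CPM per kb). It then overlapped Tsc1, whose libraries ran from 7.48 to 7.69 CPM per kb, within the 7.22 to 8.37 CPM per kb of Eif4ebp1. The other genes kept their order. The order depends on the length used: per kb of the longest transcript, Tsc2 lay above Eif4e, Rps6kb1 above Mtor and Rptor above Tsc1. Eif4ebp1 then had the lowest mean, at 6.45 CPM per kb in WT, separate from Rictor, and 8.59 CPM per kb in Fmr1-KO, where its libraries (7.94 to 9.21) overlapped those of Rictor (8.72 to 9.76).

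**Figure D2:**
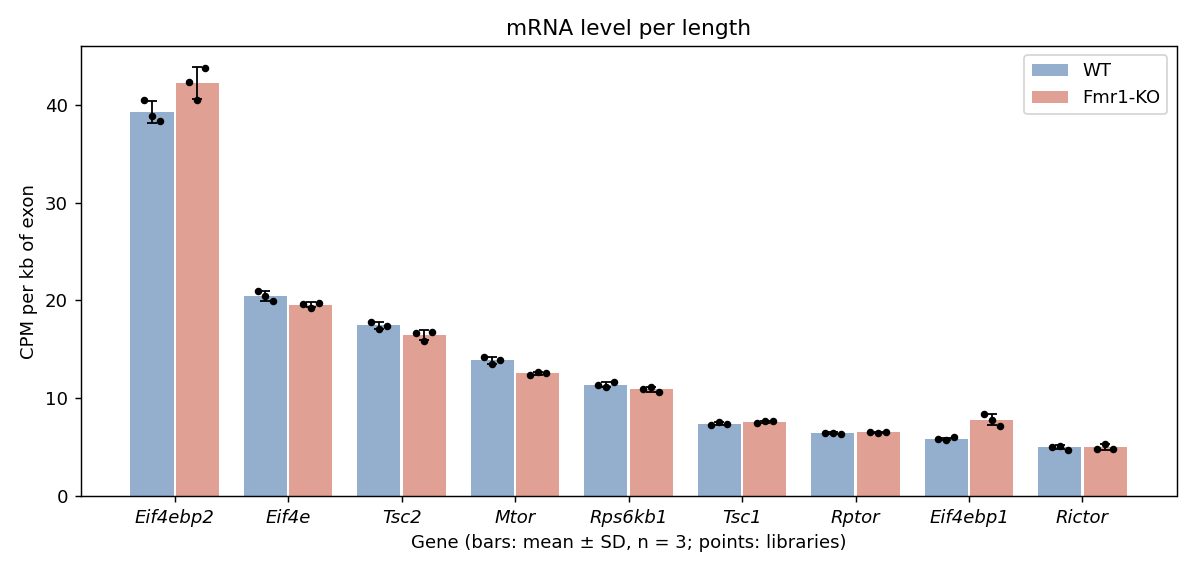
Level of each gene as TMM-scaled CPM per kb of exon (vertical axis, starting at 0), in WT and Fmr1-KO; bars are means with SD of 3 libraries and points are libraries. Eif4ebp2 is highest in both genotypes, and Eif4ebp1 passes Rptor in Fmr1-KO.

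Mtor, the kinase shared by both complexes, was the member with the clearest decrease. The gene lies at chr4:148448611-148557683 on the plus strand (GRCm38). Its level was 144.1, 136.7 and 140.6 CPM in the WT libraries and 125.0, 128.2 and 127.4 CPM in the Fmr1-KO libraries. All Fmr1-KO libraries were below all WT libraries, and the gap between the groups was wider than the range within either. The mean fell from 140.5 ± 3.67 to 126.9 ± 1.71 CPM (SD, n = 3), a log2 fold-change of -0.15 (SE 0.03, adjusted P = 0.000878), with a 95% interval of -13.8% to -5.37%. Among tested genes, 88.9% had a lower mean CPM than Mtor, not divided by length, and 48.4% a smaller absolute change.

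The scaffolds of the complexes did not pass the test. Rptor (chr11:119602905-119899576, plus strand), the mTORC1 scaffold that binds the TOS motif, had 87.2, 87.5 and 85.8 CPM in WT and 87.7, 87.2 and 88.6 CPM in Fmr1-KO. The log2 fold-change of Rptor was 0.02 (SE 0.03, adjusted P = 0.726), and the 95% interval ran from -3.60% to 6.16%. Rictor (chr15:6708379-6800401, plus strand), the mTORC2 scaffold, had 85.0, 87.7 and 80.7 CPM in WT and 81.2, 90.9 and 81.8 CPM in Fmr1-KO. Replicate 2 was the highest library of Rictor in each genotype, and the groups overlapped. The log2 fold-change of Rictor was 0.00 (SE 0.04, adjusted P = 0.974), with a 95% interval of -5.96% to 6.67%, and it was -0.05 (adjusted P = 0.337) without Fmr1-KO replicate 2.

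The genes of the TSC brake gave different results for the partners. Tsc2, the subunit that acts on RHEB, lies at chr17:24595816-24632630 on the minus strand and had 171.4, 164.8 and 167.7 CPM in WT and 160.7, 152.3 and 161.5 CPM in Fmr1-KO. The Fmr1-KO libraries all lay below the WT libraries, by a narrow margin between the highest of one group and the lowest of the other. Tsc2 thus fell by 0.09 on the log2 scale (SE 0.03, adjusted P = 0.0381), or a change of -5.84% in mean CPM with a 95% interval of -10.2% to -1.26%. This call was lost with library totals alone (-0.06, adjusted P = 0.159), with upper-quartile normalization (-0.08, adjusted P = 0.0653), and without any one of WT replicates 1 or 3 or Fmr1-KO replicates 1 or 2 (adjusted P from 0.0504 to 0.152).

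Tsc1 (chr2:28641228-28691167, plus strand), which stabilizes Tsc2 in the complex, had 86.3, 89.7 and 87.1 CPM in WT and 88.5, 90.9 and 90.4 CPM in Fmr1-KO. The groups overlapped, and the log2 fold-change was 0.04 (SE 0.03, adjusted P = 0.426), with a 95% interval of -2.41% to 7.72%. The exons of Tsc2 overlap those of Pkd1 on the other strand over 693 bases, and the authors' counting was stranded.

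Rps6kb1 (chr11:86498871-86544805, minus strand), the S6 kinase that carries the third TOS motif shown above, had 98.8, 96.2 and 101.0 CPM in WT and 94.6, 96.7 and 92.4 CPM in Fmr1-KO. The highest Fmr1-KO library lay above the lowest WT library. The log2 fold-change was -0.06 (SE 0.03, adjusted P = 0.160), with a 95% interval of -8.87% to 0.708%.

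Eif4e, the cap-binding protein itself, lies at chr3:138526179-138559696 on the plus strand. It had 125.9, 122.7 and 120.1 CPM in WT and 118.3, 115.7 and 118.4 CPM in Fmr1-KO, so that every Fmr1-KO library was below every WT library. The difference did not pass the threshold over all genes: the log2 fold-change was -0.07 (SE 0.03, adjusted P = 0.117), with a 95% interval of -8.81% to 0.194%. The exons of Eif4e share 61 bases with those of a microRNA gene, Mir1956, on the same strand.

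Eif4ebp1 had the largest change of the 9 genes. It encodes 4E-BP1 and lies at chr8:27260329-27276674 on the plus strand. It was also the least counted member, with 444, 419 and 440 counts in WT and 598, 526 and 552 counts in Fmr1-KO. Scaled to library size these were 12.8, 12.7 and 13.2 CPM in WT and 18.4, 17.2 and 15.9 CPM in Fmr1-KO. Each Fmr1-KO library lay above each WT library, and the Fmr1-KO libraries were more spread out, with a coefficient of variation of 7.37% against 2.10% in WT and a counting error of 4.09% to 4.89% per library. The mean rose from 12.9 ± 0.271 to 17.1 ± 1.26 CPM (SD, n = 3), a log2 fold-change of 0.41 (SE 0.07, adjusted P = 5.01e-05) with a 95% interval of 20.4% to 47.0%. Among tested genes, 81.0% had a smaller absolute change and 42.9% a lower mean CPM, not divided by length. The call held in all 14 alternative settings, with log2 fold-changes from 0.36 without Fmr1-KO replicate 1 to 0.47 without Fmr1-KO replicate 3.

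Eif4ebp2, which encodes 4E-BP2, lies at chr10:61428491-61452661 on the minus strand and was the most abundant member. Its mean CPM, not divided by length, was above that of 95.6% of tested genes. It had 234.3, 224.9 and 221.8 CPM in WT and 244.6, 234.2 and 253.1 CPM in Fmr1-KO. The groups overlapped in 1 place: Fmr1-KO replicate 2 lay just below WT replicate 1. The mean rose from 227.0 ± 6.50 to 244.0 ± 9.46 CPM (SD, n = 3), a log2 fold-change of 0.10 (SE 0.03, adjusted P = 0.0160) with a 95% interval of 2.40% to 12.8%. This call was lost without WT replicate 3 (0.09, adjusted P = 0.0815) and without Fmr1-KO replicate 3 (0.08, adjusted P = 0.107).

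**Figure D3:**
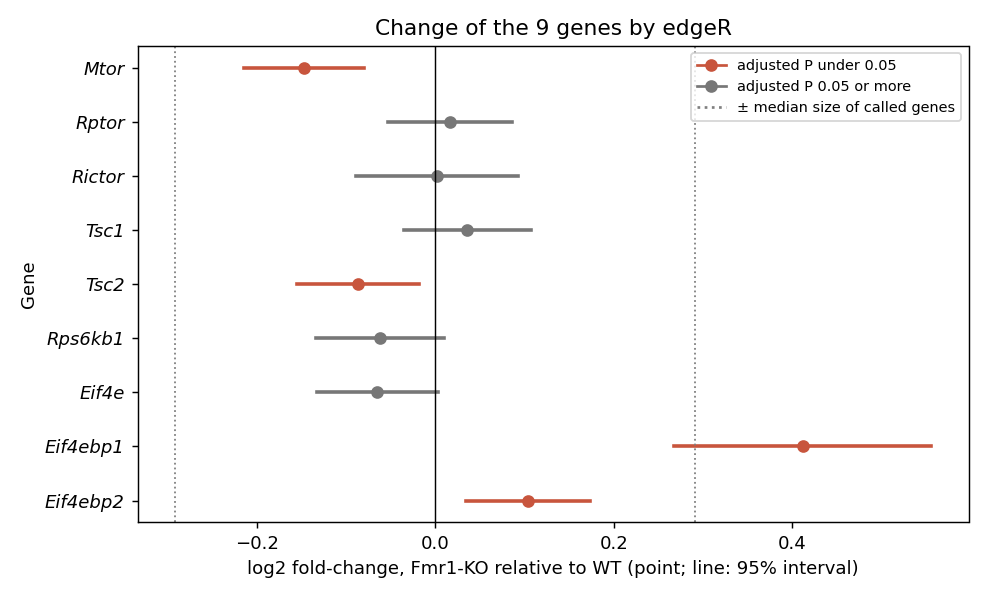
log2 fold-change of each gene in Fmr1-KO relative to WT (horizontal axis; points) with its 95% interval (lines) by edgeR; red marks an adjusted P under 0.05 and dotted lines mark the median absolute change of all called genes, 0.29. Eif4ebp1 is the only gene whose estimate, 0.41, lies beyond the dotted lines.

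Because the 4E-BPs act by binding eIF4E, the counts of these genes were also set against each other within each library, where scaling by library size plays no part. There were 1.86, 1.83 and 1.85 counts of Eif4ebp2 for each count of Eif4e in the WT libraries and 2.07, 2.02 and 2.14 in the Fmr1-KO libraries. The ratio was thus higher in all 3 Fmr1-KO libraries, by 12.4% (log2 difference 0.17). For Eif4ebp1 to Eif4e the ratio was 0.101, 0.103 and 0.110 in WT and 0.155, 0.149 and 0.134 in Fmr1-KO, a difference of 39.1% (log2 difference 0.48) without overlap. These ratios were not divided by gene length, and so compare genotypes and not genes.

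Within the 4E-BP pair, the ratio of Eif4ebp1 to Eif4ebp2 was 0.0545, 0.0563 and 0.0594 in WT and 0.0752, 0.0734 and 0.0627 in Fmr1-KO, so that Eif4ebp1 was 23.7% higher relative to its paralog. The ratio of Tsc1 to Tsc2 was 0.503, 0.545 and 0.519 in WT and 0.551, 0.597 and 0.560 in Fmr1-KO, higher by 8.91% without overlap. Rptor to Rictor, the mTORC1 to mTORC2 scaffold ratio, was 1.03, 0.998 and 1.06 in WT and 1.08, 0.959 and 1.08 in Fmr1-KO, with overlap. A 2-sided exact permutation test with 3 libraries against 3 cannot go below p = 0.1. This exact test gave p = 0.1 (0.125 after Benjamini-Hochberg adjustment over the 5 ratios) for the 4 ratios that did not overlap, and p = 0.8 for Rptor to Rictor, so none passed a threshold of 0.05. The 3 ratios among Eif4e, Eif4ebp1 and Eif4ebp2 are not independent, because each follows from the others. How many ratios of other gene pairs do not overlap was not counted. Among single tested genes the share was 51.7%.

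**Figure D4:**
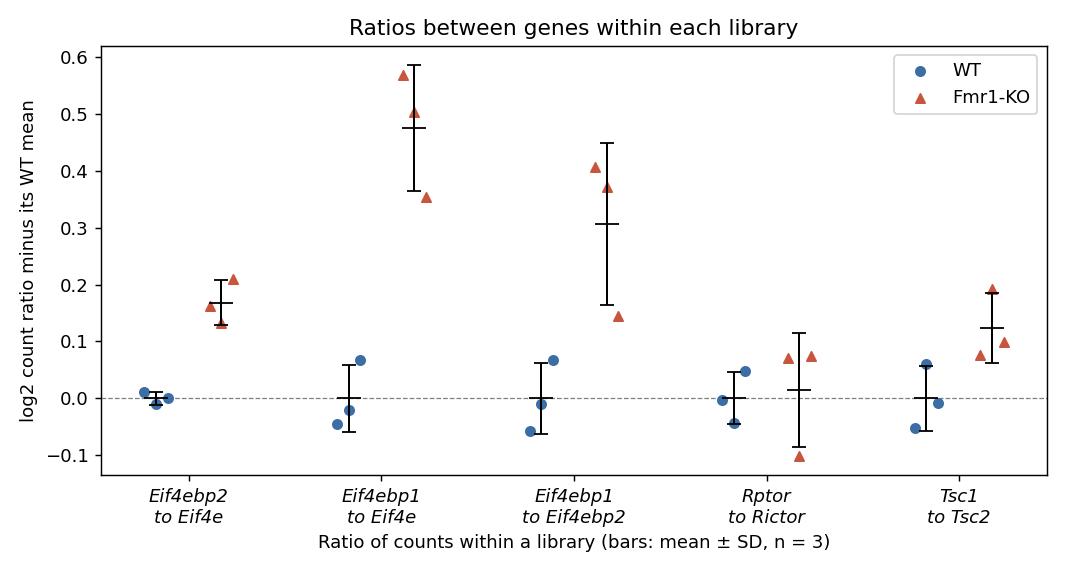
log2 ratio of the counts of paired genes within a library, minus the WT mean of that ratio (vertical axis); circles are WT libraries, triangles are Fmr1-KO libraries, and bars give the mean ± SD of 3 libraries. In 4 of the 5 ratios all Fmr1-KO libraries lie above all WT libraries, and Rptor to Rictor overlaps. The ratios among Eif4e, Eif4ebp1 and Eif4ebp2 are not independent of each other.

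Beside the rise of Eif4ebp1 and the genes of proliferating cells, other cell type markers also differed between genotypes. For comparison, 21.9% of all tested genes were called lower and 20.7% higher. Of 5 markers of intermediate progenitors, 4 were tested and all 4 were called higher, and their summed level ran from 101 to 117 CPM in WT and from 225 to 252 CPM in Fmr1-KO. Of 8 markers of neural progenitors and radial glia, 3 (Pax6, Nes and Vim) were called higher, 0 lower and 5 (Sox2, Hes1, Hes5, Fabp7 and Slc1a3) were not called, with sums of 3169 to 3202 CPM in WT and 3456 to 3508 CPM in Fmr1-KO. All genes of these lists had counts, and none was at 0. By contrast, all 7 oligodendrocyte lineage markers were called lower, with sums of 1882 to 2043 CPM in WT and 1073 to 1158 CPM in Fmr1-KO. Of 7 microglia markers 6 were called lower (124 to 140 CPM in WT, 78.5 to 86.9 CPM in Fmr1-KO). Of 7 endothelial and mural markers, 4 were called higher (Kdr, Flt1, Pdgfrb and Acta2) and 1 lower (Rgs5). Their sum ran from 245 to 268 CPM in WT and from 409 to 428 CPM in Fmr1-KO. Most of that sum was Acta2, with means of 176 CPM in WT and 322 CPM in Fmr1-KO. Rgs5 fell from 22.1 to 11.8 CPM. The endothelial gene Pecam1 was low and not called (0.796 CPM in WT, 1.02 CPM in Fmr1-KO), and Cldn5 did not pass the filter. The sum therefore does not describe endothelial cells. GABAergic interneuron markers, 3 called higher and 4 lower, summed to 701 to 730 CPM in WT and 751 to 822 CPM in Fmr1-KO. Of 8 excitatory neuron markers 4 were called higher and 3 lower. The part of these cell types in the changes of Eif4ebp1, Eif4ebp2, Mtor and Tsc2 was not tested.

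Over the 6 libraries, the genes with the most similar pattern to Eif4ebp1 were Gtse1, Dmrta2 and Pacsin3. Likeness was the root mean square difference of log2 CPM after each gene was centred on its mean, over the 10754 genes whose mean reached 10 CPM. It was 0.0245 for Gtse1, 0.0262 for Dmrta2 and 0.0302 for Pacsin3, whose log2 fold-changes were 0.40, 0.43 and 0.44. These genes were picked for their likeness, which is therefore a description only.

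The other genes of the pathway were taken from 6 lists that together held 92 genes, all of them tested. Of these, 24 (26.1%) were called lower and 15 (16.3%) higher, against 21.9% and 20.7% of all tested genes by the same TMM scaling. These shares are also the background for the counts per list below, and no list was tested as a set. Their median log2 fold-change was -0.02, against 0.01 over all tested genes, and 0 of the called genes changed by 2-fold or more.

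The partner subunits of mTORC1 and mTORC2 gave few calls. Of 9 genes, 0 were called lower and 1 was called higher, with a median log2 fold-change of 0.05, while 42.6% of all tested genes were called. The called gene was Tti1, which helps assemble mTOR and related kinases (0.28, SE 0.07, adjusted P = 0.00224). It rose from 22.9 ± 2.77 to 27.8 ± 0.320 CPM (SD, n = 3). Mlst8, the subunit common to both complexes, was not called (0.08 on the log2 scale, adjusted P = 0.136).

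Among 10 genes of the TSC-Rheb switch and its inputs, 2 were called lower and 3 higher (median 0.07). Ddit4, also named REDD1, a stress-induced inhibitor of mTORC1, rose from 62.0 ± 5.33 to 83.4 ± 4.53 CPM (SD, n = 3), a log2 fold-change of 0.43 (adjusted P = 6.10e-07). This is close in size to the change of Eif4ebp1. Prkaa2, a catalytic subunit of the energy sensor AMPK, fell by 0.23 on the log2 scale, while the AMPK subunit Prkab1 (0.14) and the AMPK-activating kinase Stk11 (0.11) rose. Rheb, the GTPase that TSC2 switches off, fell by 0.10 on the log2 scale (adjusted P = 0.0332).

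The PI3K-AKT input, which carries growth factor signals to TSC2, held the most calls. Of 17 genes, 9 were called lower and 4 higher, against 21.9% and 20.7% of all tested genes. The median log2 fold-change of the list was -0.10. Agap2, a GTPase that enhances PI3K activity (-0.48, adjusted P = 2.16e-10), and Pik3cd, a catalytic PI3K subunit (-0.48, adjusted P = 2.64e-06), had the largest decreases. Agap2 went from 230.0 ± 8.29 to 164.8 ± 4.24 CPM (SD, n = 3). Akt2, a kinase of the AKT family, rose from 91.7 ± 0.555 to 107.7 ± 0.802 CPM (log2 fold-change 0.23, adjusted P = 5.28e-06).

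The lysosomal amino acid input comprises the Rag GTPases, Ragulator, the GATOR complexes and their sensors. Of its 28 genes, 5 were called lower and 4 higher (median 0.01). The folliculin partners went opposite ways, with Fnip2 at -0.35 (adjusted P = 5.03e-07) and Fnip1 at 0.26 (adjusted P = 1.68e-05) on the log2 scale. Sesn2, a leucine sensor, rose (0.22, adjusted P = 0.00307).

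Among 20 genes of eIF4F and its cap-binding partners, 7 were called lower and 1 higher, against 21.9% and 20.7% of all tested genes. The median log2 fold-change of these 20 genes was -0.06. Cyfip2 had the largest decrease (-0.49, SE 0.03, adjusted P = 1.59e-11), from 401.9 ± 5.44 to 285.8 ± 5.05 CPM (SD, n = 3). CYFIP proteins bind FMRP, and its paralog CYFIP1 is known as an eIF4E-binding repressor. Cyfip1 itself was not called (-0.08, adjusted P = 0.0918). The eIF4G scaffolds, which compete with the 4E-BPs for eIF4E, fell: Eif4g3 by 0.23 and Eif4g1 by 0.13 on the log2 scale. Paip2, an inhibitor of the poly(A)-binding protein, rose (0.18, adjusted P = 0.000142). The third 4E-BP gene, Eif4ebp3, was low, at 0.356 ± 0.00940 CPM in WT and 0.502 ± 0.0486 CPM in Fmr1-KO (adjusted P = 0.206).

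In the S6 kinase branch, 1 of 8 genes was called lower and 2 higher (median -0.03). These were the ribosomal S6 kinases Rps6ka3 (-0.11) and Rps6ka2 (0.17) and the S6 kinase 1 partner Poldip3 (0.09). Rps6, the ribosomal protein that S6 kinases phosphorylate, was not called (-0.07, adjusted P = 0.155), nor was Rps6kb2, the paralog of Rps6kb1 (-0.02, adjusted P = 0.795).

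**Figure D5:**
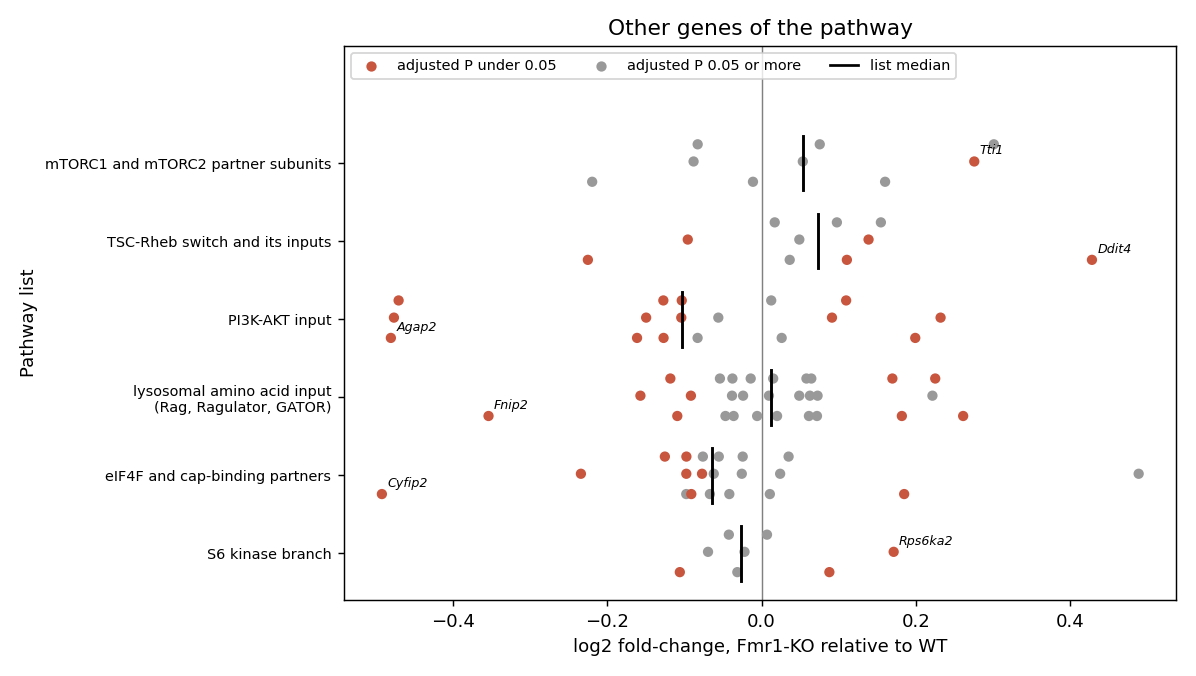
log2 fold-change in Fmr1-KO relative to WT (horizontal axis) of 92 other genes of the pathway in 6 lists (vertical axis); each point is a gene, red marks an adjusted P under 0.05 black lines mark list medians, and the called gene with the largest change in each list is named. The PI3K-AKT list has the lowest median, -0.10, and Cyfip2, at -0.49, lies farthest to the left.

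As the study's interest was NMD, the genes were looked up by name among the 1027 NMD targets that it defined in N2A neuroblastoma cells. None of the 9 genes was among them (0 of 9), and 8 of the 92 other pathway genes were: Mlst8, Telo2, Pik3ca, Pik3r1, Pik3r2, Fnip2, Sesn1 and Mknk2. The share of all tested genes on the list was not counted, so these counts are a description only. The paper cautions that a list made in N2A cells misses targets present in the cultured neurons but absent from N2A cells. Pik3r1 (-0.10), Pik3r2 (-0.15) and Fnip2 fell, Pik3ca (0.09) and Sesn1 (0.17) rose, and the others did not pass the test. The annotation gives NMD-type transcripts for 3 of the 9 genes (Rptor, Tsc1 and Tsc2), and counts summed per gene do not separate these from the coding transcripts.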

How the data were processed

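The authors deposited raw counts per gene name, made from stranded poly(A) libraries: FastP trimmed the single-end reads, STAR 2.7.6a mapped them to GRCm38.p6, and featureCounts (Subread 2.0.1) counted them over exons, by strand. Genotype and replicate number came from the labels. Counts were tested with edgeR 4.0.16 (R 4.3.3): filterByExpr, TMM, glmQLFit and glmQLFTest on genotype alone, 2-sided, with Benjamini-Hochberg adjustment over 16976 genes. SE was the absolute log2 fold-change over the square root of F, and 95% intervals used the fit's degrees of freedom. On simulated counts for 16814 genes, 98% of 200 genes changed by 1 log2 unit were recovered and 0.0662% of unchanged genes were called. Exon lengths, coordinates and sequences came from GENCODE M21 on GRCm38. Replicates with the same number did not deviate together (correlations -0.0289 to 0.0323), so libraries were not paired.

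The 9 genes, the pathway and marker lists and the alternatives were chosen with earlier results of these data known. Besides the 9 genes and Fmr1, the text names the 4 called genes with the largest absolute change per pathway list and the 3 genes nearest in pattern to Eif4ebp1; some genes that this rule selects are not reported here. Others (Mlst8, Rheb, Cyfip1, Eif4ebp3, Rps6, Rps6kb2 and the NMD targets) were added for their roles after values had been seen. Alternatives were DESeq2 1.42.0, other normalizations and count filters, a replicate block, a minimum fold change of 1.2 and leaving out each library. Names of NMD targets came from the study, and none of its values were used.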

Additional observations from a re-analysis of the deposited data

How the results depend on the processing

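Of 126 fold changes of the 9 genes recomputed over 14 settings, 112 kept direction and call, 11 lost the call and 3 changed sign. The sign changes were all of Rictor, at -4.49e-05 with DESeq2, -0.0301 without WT replicate 3 and -0.0517 without Fmr1-KO replicate 2. All values of Rictor with 1 library left out lay between -0.0517 and 0.0302. With a minimum fold change of 1.2, 1340 of all tested genes were called lower and 883 higher, and of the 9 genes 0 were lower and 1 was higher (Eif4ebp1, adjusted P = 0.0422 by edgeR). Genes of the 9 called lower numbered 1, Mtor, with upper-quartile normalization and also 1 with library totals alone. They numbered 1 to 2 when 1 library was left out, and those called higher 1 to 2. Mtor kept its call in every setting except the minimum fold change, with log2 fold-changes from -0.17 to -0.12. With a replicate block, 2 of the 9 genes were lower and 2 higher, out of 3694 and 3488 genes, and no call of the 9 changed. The numbers gave no sign of pairing, since only 2 of 6 libraries correlated best with their own number. Of 30 leave-one-out ratio differences 27 kept their direction. Rptor to Rictor ran from -0.0152 to 0.0724 on the log2 scale. The median of the S6 kinase branch was 0.00108 with library totals alone, and the other 17 of 18 list medians kept their sign. The median log2 fold-change of all tested genes was 0.0338 with library totals alone, against 0.00601 with TMM. Depth limited the precision most for Eif4ebp1, the least counted of the 9 genes.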
